A study of Mus musculus with 4 samples.

Results

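The 37 genes described here are type I interferon-stimulated genes, chosen by symbol from the 32285 genes of the deposited count matrices. They were followed gene by gene in immune cells of neonatal mouse hearts. Hearts without atria came from C57BL/6 mice operated on at postnatal day 2 and collected 7 days later, and live CD45+ cells were sorted from them. Each of 4 droplet libraries (10x Genomics 3' v3) held 1 group. Het_sham and Het_MI were PD1 +/- mice after sham surgery or myocardial infarction (MI), and KO_sham and KO_MI were PD1 -/- mice after the same operations. All mice thus carried at least 1 deleted PD1 allele, and no PD1 +/+ group was analysed. The labels used here state neither how many hearts went into a library nor which part of the PD1 gene was deleted.

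Type I interferons signal through the receptor IFNAR to a transcription factor complex that includes STAT2 and IRF9 and binds the interferon-stimulated response element (ISRE) in front of its target genes. The targets encode sensors and inhibitors of viral RNA and DNA as well as regulators of the signal itself. Cardiac macrophages and infiltrating monocytes are known to express them after myocardial infarction, when nucleic acid from dying cells is taken up.

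The stretches that follow are the 180 bases directly upstream of the RefSeq start sites of 7 members whose levels are described later, read 5' to 3' along the gene (RefSeq, GRCm38.p6). They were chosen to show single, paired and overlapping matches in genes with different patterns across the libraries. Capitals mark each match to the letters used here for the ISRE, GAAA and GAAA again after 2 bases of any kind, on either strand (TTTC in place of GAAA on the other). Isg15 lies at chr4:156200819-156200998 on the minus strand, Ifit1 at chr19:34640709-34640888 on the plus strand, Ifit3 at chr19:34583349-34583528 on the plus strand and Ifit3b at chr19:34607777-34607956 on the plus strand. Rsad2 lies at chr12:26456453-26456632, Oas1a at chr5:120907526-120907705 and Bst2 at chr8:71537473-71537652, all on the minus strand. In Ifit3b the first capitals are the end of a match that begins just upstream of the stretch.
Isg15: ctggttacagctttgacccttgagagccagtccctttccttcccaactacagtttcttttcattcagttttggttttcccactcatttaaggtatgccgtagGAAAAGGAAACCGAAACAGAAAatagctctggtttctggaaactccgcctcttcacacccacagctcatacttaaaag
Ifit1: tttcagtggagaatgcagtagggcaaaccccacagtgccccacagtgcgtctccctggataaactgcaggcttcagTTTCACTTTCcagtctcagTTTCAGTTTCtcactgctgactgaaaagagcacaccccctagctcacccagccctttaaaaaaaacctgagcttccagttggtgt
Ifit3: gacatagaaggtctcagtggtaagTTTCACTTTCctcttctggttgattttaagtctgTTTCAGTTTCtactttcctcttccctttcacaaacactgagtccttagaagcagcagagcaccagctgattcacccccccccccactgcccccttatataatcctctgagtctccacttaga
Ifit3b: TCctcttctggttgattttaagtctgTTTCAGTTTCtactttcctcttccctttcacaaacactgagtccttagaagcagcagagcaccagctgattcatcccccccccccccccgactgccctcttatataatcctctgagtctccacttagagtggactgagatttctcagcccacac
Rsad2: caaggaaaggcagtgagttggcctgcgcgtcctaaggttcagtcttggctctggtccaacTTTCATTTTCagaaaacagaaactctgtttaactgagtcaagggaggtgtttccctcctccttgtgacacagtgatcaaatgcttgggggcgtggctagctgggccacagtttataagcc
Oas1a: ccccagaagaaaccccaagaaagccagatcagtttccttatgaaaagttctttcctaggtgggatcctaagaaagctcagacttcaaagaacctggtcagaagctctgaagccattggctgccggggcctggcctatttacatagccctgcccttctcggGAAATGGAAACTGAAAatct
Bst2: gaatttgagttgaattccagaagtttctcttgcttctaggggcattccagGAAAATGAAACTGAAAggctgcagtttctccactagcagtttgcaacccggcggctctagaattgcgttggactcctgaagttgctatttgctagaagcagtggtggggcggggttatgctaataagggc
The Isg15 stretch held 3 overlapping matches in 1 run, Oas1a and Bst2 held 2 that overlap, Ifit1 and Ifit3 held 2 apart, and Rsad2 held 1. Within these stretches Ifit3 and Ifit3b share an identical run of 99 bases. It begins at the first base printed for Ifit3b and was not followed further upstream.

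Promoters (250 bases before to 50 after the start, 300 in all) were matched for 29 of the 37 members. Ifi27l2a, Oas2, Usp18, Ifi204, Rtp4, Zbp1, Dhx58 and Parp14 had no entry. An ISRE match stood in 18 of the 29 (62.1%), against 1079 of 27025 promoters of all genes (3.99%). With 1 mismatch allowed it stood in 26 of the 29 (89.7%), against 38.9% of all promoters. The element of interferon-gamma signalling, TTCNNNGAA on either strand, was found in 5 of the 29 (17.2%; Ifit2, Oas1a, Bst2, Ifi35 and Samhd1), against 9.55% of all promoters. A match describes the letters of the window and is not a bound site.

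The libraries held 6157 to 8379 barcodes and 52701847 to 72002420 UMIs (unique molecular identifiers, each standing for 1 counted RNA molecule). After filtering, 5074 to 7104 cells per library remained, and 3775 to 5038 fell into a class gated on marker genes. The classes are called by the lineage their markers name, and each is macrophage-like, monocyte-like and so on. Kept cells of any 2 libraries shared 4 to 13 barcodes. The targeted gene, Pdcd1, was not lost from the KO libraries. T cells held 24 Pdcd1 UMIs in Het_sham, 20 in KO_sham, 32 in Het_MI and 93 in KO_MI. A 3' tag outside the deleted part checks nothing, so genotypes are those of the labels. The libraries also differed in sex-linked RNA. Of the gated macrophages, 625 in Het_sham, 1235 in KO_sham and 1243 in Het_MI held a Y-linked UMI and 0 did in KO_MI, so genotype after MI and sex are partly mixed. Each group being 1 library, no test across animals can be made. The intervals given are 95% intervals for counting error only, and a gene is called higher or lower where its level differs by at least 1.5-fold with at least 30 UMIs over both libraries. Levels are CPM, UMIs per 1000000 UMIs of the class, and are compared within a gene.

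Macrophages were the largest class, with 1342 cells in Het_sham, 2410 in KO_sham, 1947 in Het_MI and 2578 in KO_MI, which is the order of all values given without a name. In these cells the interferon-stimulated genes stood highest in KO_MI and tended to be lowest in KO_sham. KO_MI held the highest level for 28 of 37 members (75.7%) and the lowest for none, while over 13728 genes it held the highest for 15.2% and the lowest for 47.2%. KO_sham held the lowest level for 19 members (51.4%), against 16.1% of all genes. Summed over the members, the level was 2552, 2438, 2495 and 3384 CPM. Ifi27l2a made up 28.0% to 34.4% of that sum in each library, so the members are taken 1 by 1 below.

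**Figure D1:**
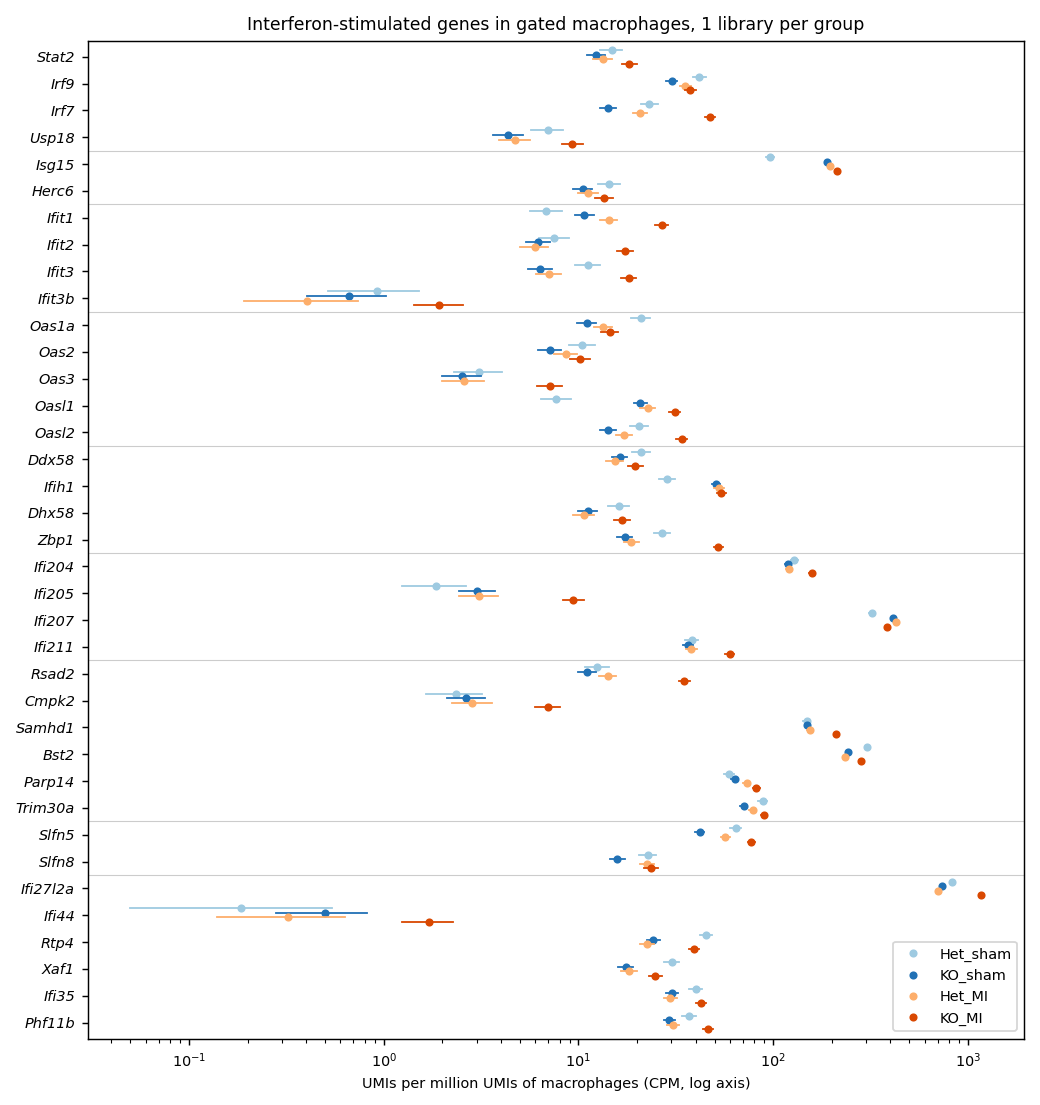
Level of each of the 37 members in gated macrophages of the 4 libraries, in CPM on a log axis, with bars for the 95% Poisson interval of counting. Genes are grouped by role, and the KO_MI point lies furthest right for 28 of them.

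Among the regulators of the signal, Irf7 and Usp18 were called higher in KO_MI than in Het_MI. Irf7, the transcription factor that amplifies interferon production, stood at 23.2, 14.2, 20.7 and 47.5 CPM. KO_MI lay above the other 3 libraries, with a log2 ratio over Het_MI of 1.20 [1.05 to 1.35] and 2.29-fold. Usp18, which removes ISG15 from proteins and dampens the receptor, stood at 6.96, 4.35, 4.71 and 9.32 CPM, a log2 ratio of 0.99 [0.66 to 1.32]. Both genes were lowest in KO_sham. Stat2, part of the complex that carries the signal, stood at 14.8, 12.3, 13.3 and 18.3 CPM and kept within 1.5-fold (0.46 [0.25 to 0.66]). Irf9, the DNA-binding part of the complex, stood at 41.8, 30.2, 35.4 and 37.6 CPM, with an interval that spans 0 between the MI libraries (0.09 [-0.05 to 0.22]). The regulators thus differed in degree, from Irf7 down to Irf9.

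The 4 IFIT genes, which encode proteins that hold back foreign RNA and lie side by side on chromosome 19, were all called higher in KO_MI than in Het_MI. Ifit2 (chr19:34550694-34576419) stood at 7.52, 6.22, 5.95 and 17.4 CPM, a log2 ratio of 1.54 [1.27 to 1.82]. Ifit3 (chr19:34583531-34588731) stood at 11.2, 6.38, 7.04 and 18.1 CPM, a log2 ratio of 1.37 [1.11 to 1.62]. KO_MI was highest for both, and Het_sham lay between it and the other 2 libraries for Ifit3. Ifit1 (chr19:34640871-34650009) stood at 6.84, 10.7, 14.3 and 26.7 CPM, a log2 ratio of 0.90 [0.72 to 1.09]. Here Het_sham was lowest, unlike in Ifit3. Ifit3b (chr19:34607970-34613401), a close copy of Ifit3, rested on 15, 20, 10 and 51 UMIs, a log2 ratio of 2.26 [1.27 to 3.41]. Of the windows of 60 bases in the last 500 bases of Ifit3, 12.9% also occur in Ifit3b. Those windows do not tell the 2 genes apart, so their counts are uncertain.

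Isg15 and its ligase followed another order. Isg15, a ubiquitin-like protein attached to other proteins, stood at 96.5, 190, 197 and 212 CPM. It was low in Het_sham only, and KO_MI exceeded Het_MI by a log2 ratio of 0.11 [0.05 to 0.16]. Herc6, the ligase that attaches ISG15 in mice, stood at 14.4, 10.5, 11.3 and 13.6 CPM (0.27 [0.04 to 0.50]) and was highest in Het_sham. So 0 of these 2 members were called between the MI libraries, and the 2 had opposite orders in sham hearts.

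Of the 5 OAS genes, whose products make or resemble the makers of the oligoadenylates that switch on RNase L, 2 were called higher in KO_MI than in Het_MI. Oas3 stood at 3.08, 2.53, 2.57 and 7.12 CPM, a log2 ratio of 1.47 [1.05 to 1.90]. Oasl2 (chr5:114896936-114912234) stood at 20.5, 14.2, 17.2 and 33.9 CPM, a log2 ratio of 0.98 [0.81 to 1.15]. Its neighbour Oasl1 (chr5:114923240-114937915) kept the Isg15 order instead, at 7.70, 20.8, 22.7 and 31.2 CPM, with 0.46 [0.30 to 0.62] between the MI libraries. Oas1a stood at 20.9, 11.0, 13.4 and 14.5 CPM and was highest in Het_sham, with 0.12 [-0.10 to 0.33] after MI. In Oas1a 51.2% of the windows near the end also occur in Oas1g, so its count is uncertain. Oas2 stood at 10.4, 7.11, 8.61 and 10.2 CPM (0.24 [-0.02 to 0.51]). The family thus held 3 orders of the libraries.

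Among the sensors of nucleic acid, Zbp1 and Dhx58 were called higher in KO_MI than in Het_MI and Ddx58 and Ifih1 were not. Zbp1, a sensor of left-handed nucleic acid that can start necroptosis, stood at 26.8, 17.3, 18.7 and 52.3 CPM, a log2 ratio of 1.48 [1.33 to 1.64]. That made it 2.80-fold higher, with KO_MI clear of the other libraries. Dhx58, which encodes LGP2, stood at 16.1, 11.1, 10.7 and 16.7 CPM (0.65 [0.42 to 0.87]), so Het_sham was close to KO_MI. Ddx58, which encodes RIG-I, stood at 20.9, 16.3, 15.4 and 19.6 CPM (0.35 [0.16 to 0.54]). Ifih1, which encodes MDA5, stood at 28.6, 50.9, 52.7 and 54.3 CPM, with 0.04 [-0.07 to 0.15] after MI. It was low in Het_sham only, as Isg15 and Oasl1 were.

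The PYHIN genes, a cluster on chromosome 1 that encodes DNA-binding and DNA-sensing proteins, were split. Ifi205 stood at 1.85, 3.03, 3.10 and 9.43 CPM, a log2 ratio of KO_MI over Het_MI of 1.61 [1.23 to 1.99]. Ifi211 stood at 38.1, 36.6, 37.9 and 59.8 CPM (0.66 [0.54 to 0.78]). In Ifi205 and Ifi211 74.1% and 72.3% of the windows near the end also occur in each other or in Mndal, so the split between them is uncertain. Ifi204 stood at 128, 119, 121 and 158 CPM (0.38 [0.32 to 0.45]). Ifi207 stood at 320, 413, 426 and 386 CPM and was the only member whose interval lay below 0 between the MI libraries (-0.14 [-0.18 to -0.10]).

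Of the 6 antiviral enzymes and membrane factors, Rsad2 and Cmpk2, neighbours on chromosome 12, were called higher in KO_MI than in Het_MI. Rsad2 (chr12:26442746-26456452), which encodes viperin, stood at 12.4, 11.1, 14.1 and 35.0 CPM, a log2 ratio of 1.31 [1.13 to 1.49]. Cmpk2 (chr12:26469204-26479837), a nucleotide kinase of mitochondria, stood at 2.34, 2.66, 2.86 and 6.97 CPM, a log2 ratio of 1.29 [0.88 to 1.70]. In both genes the other 3 libraries lay close together. Samhd1, which degrades the building blocks of DNA, stood at 149, 150, 155 and 210 CPM (0.44 [0.38 to 0.50]). Bst2, which encodes tetherin, stood at 305, 241, 234 and 284 CPM (0.28 [0.23 to 0.33]) and was highest in Het_sham. Trim30a stood at 88.4, 70.6, 78.5 and 89.7 CPM, and Parp14, an ADP-ribosyltransferase, at 59.4, 63.3, 73.0 and 82.1 CPM. None of these 4 reached 1.5-fold after MI.

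Of the Schlafen and further members, 4 were called higher in KO_MI than in Het_MI. Ifi27l2a (chr12:103442167-103443680), a small membrane protein, stood at 829, 732, 698 and 1166 CPM, a log2 ratio of 0.74 [0.71 to 0.77]. Rtp4, an antiviral RNA-binding protein, stood at 45.3, 24.3, 22.4 and 39.4 CPM (0.81 [0.66 to 0.96]), and here Het_sham was the highest library. Ifi44 rested on 3, 15, 8 and 45 UMIs (2.41 [1.31 to 3.70]). Phf11b stood at 36.9, 29.3, 30.7 and 46.2 CPM (0.59 [0.46 to 0.72]), just past 1.5-fold. Of its windows near the end 36.7% also occur in other Phf11 genes. Ifi35 stood at 40.1, 30.2, 29.7 and 42.6 CPM (0.52 [0.38 to 0.66]) and was the closest below the threshold. Xaf1 stood at 30.1, 17.5, 18.1 and 24.8 CPM, highest in Het_sham. Slfn5 stood at 64.1, 41.9, 56.9 and 77.3 CPM and Slfn8 at 22.7, 15.9, 22.6 and 23.6 CPM, so 0 of the 2 Schlafen genes were called after MI.

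The comparison of KO_MI with Het_MI asks how loss of the second PD1 allele relates to the interferon-stimulated genes after infarction. Over all 37 members, 18 were called higher and 0 lower in macrophages, where 4.15% of 12665 genes measured were called higher and 3.93% lower. The interval lay above 0 for 31 members and below 0 for 1. The median log2 ratio was 0.52, against -0.11 over all genes. Of the 18 members with an ISRE match 8 were called higher, with a median of 0.45, and of the 11 matched members without one 5 were, with a median of 0.52.

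The same genotype comparison after sham surgery ran the other way for most members. Of 36 members measured in macrophages, 5 were called higher in KO_sham than in Het_sham and 8 lower, where 3.5% of all genes were called higher and 5.29% lower. The interval lay below 0 for 22 members and above 0 for 6, and the median was -0.34 (-0.07 over all genes). The 8 lower members were Oas1a (-0.92 [-1.14 to -0.70]), Rtp4 (-0.90 [-1.05 to -0.75]), Ifit3 (-0.81 [-1.11 to -0.51]), Xaf1 (-0.78 [-0.96 to -0.60]), Irf7 (-0.71 [-0.91 to -0.51]), Usp18 (-0.68 [-1.05 to -0.30]), Zbp1 (-0.63 [-0.82 to -0.44]) and Slfn5 (-0.61 [-0.73 to -0.49]). Of these, Ifit3, Irf7, Usp18, Rtp4 and Zbp1 were called higher in the KO library after MI. The MI and the sham comparison share no library, and for 19 of the 36 members their intervals lay on opposite sides of 0, 18 of them higher in KO_MI and lower in KO_sham. Of the 12336 genes measured in both, 9.94% had such opposite intervals, 4.09% in that direction. In cells with Xist and without Y-linked RNA the ratios after MI of Ifit3, Rtp4 and Usp18 fell under 1.5-fold. The ratio of Usp18 after sham surgery changed sign in cells thinned to an equal number of UMIs, so its decrease in KO_sham depends on the processing. The difference between the ratio after MI and that after sham surgery was not tested.

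**Figure D2:**
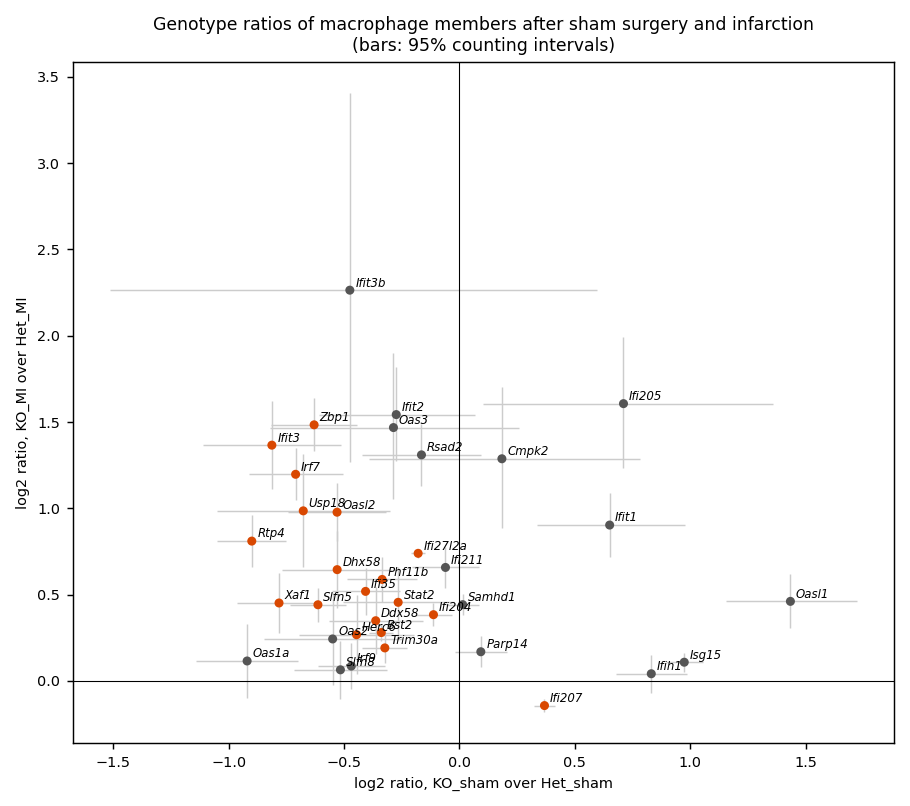
Log2 ratio of KO over Het in macrophages after sham surgery (horizontal axis) and after MI (vertical axis), 1 point per member with 95% counting intervals. Most members lie in the upper left part. Isg15, Oasl1, Ifih1, Ifit1 and Ifi205, called higher in KO_sham, lie to the right of 0, as do Ifi207, Cmpk2, Parp14 and Samhd1. Ifi207 lies in the lower right part.

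Isg15, Oasl1, Ifih1, Ifit1 and Ifi205 were the 5 members called higher in KO_sham than in Het_sham, and they were also the 5 called higher in Het_MI than in Het_sham. The 2 comparisons share the Het_sham library, in which all 5 were lowest. Isg15 exceeded Het_sham by 0.97 [0.89 to 1.06] in KO_sham and by 1.03 [0.95 to 1.11] in Het_MI. Oasl1 did so by 1.43 [1.15 to 1.72] and 1.56 [1.27 to 1.85]. Ifih1 did so by 0.83 [0.68 to 0.98] and 0.88 [0.73 to 1.04]. Ifit1 did so by 0.65 [0.34 to 0.98] and 1.06 [0.75 to 1.38], and by 0.93 and 1.41 without the top cell of each library, since 1 cell held 26.1% of the Ifit1 UMIs of the Het_sham macrophages. Ifi205 did so by 0.71 [0.10 to 1.36] and 0.74, but its ratio of KO_sham over Het_sham was -0.084 in cells thinned to 2000 UMIs. Of the 5 in that comparison, 3 remained past 1.5-fold in thinned cells and 3 with droplets of 2 lineages kept, but not the same 3. Ifit1 was past 1.5-fold in thinned cells (0.65) and under it with those droplets (0.52). Isg15, Oasl1 and Ifih1 were thus not all past 1.5-fold in thinned cells. The other members did not share this order. Of 35 members measured between Het_MI and Het_sham, 5 were called lower (Rtp4, Xaf1, Ifit3, Oas1a and Dhx58) and the median was -0.24, where 6.12% of all genes were called higher and 6.81% lower. In macrophages with Xist and without Y-linked RNA this turned, with 4 of 32 called higher and 0 lower and a median of 0.19, where 6.77% of all genes were called higher and 7.59% lower. There Rtp4 stood at -0.51 [-0.86 to -0.17] and the intervals of Xaf1, Ifit3, Oas1a and Dhx58 spanned 0. Between KO_MI and KO_sham, 18 of 37 were called higher and 0 lower, with a median of 0.58, where 5.92% of all genes were called higher and 5.15% lower. That comparison shares KO_MI with the one after infarction. The member furthest apart there was Ifi44, and Irf7 (1.75), Rsad2 (1.66) and Ifi205 (1.64) came next.

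Ifnb1, the gene of interferon beta, was also lowest in Het_sham. Macrophages held 19, 177, 168 and 107 Ifnb1 UMIs (1.17, 5.88, 6.76 and 4.05 CPM), in 14, 83, 89 and 58 cells. KO_sham and Het_MI were thus the highest for the ligand, and KO_MI, the library with the highest level for most members, lay below both (-0.74 [-1.10 to -0.38] against Het_MI). No kept cell of any class held a UMI of Ifna1, Ifna2, Ifna4, Ifna5 or Ifna6. Ifng, the ligand of the type II pathway, was counted in macrophages with 1, 13, 10 and 14 UMIs. T cells held 132, 43, 11 and 96 Ifng UMIs (40.6, 34.3, 7.21 and 44.0 CPM). NK cells held 101, 34, 58 and 81 (574, 124, 173 and 158 CPM), the Het_sham value from 24 cells. Whether Ifnb1 bears on the order of Isg15 was not tested.

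An upstream list (receptors, kinases, transcription factors, sensors and ligands) held 27 symbols. The unmatched symbols, Mb21d1 and Sting1, are other names of Cgas and Tmem173, so all 25 genes were matched. Of the 19 measured in macrophages between the MI libraries, 1 was called higher and 1 lower (Ifnb1), with a median of -0.12. Among the receptor chains, Ifnar1 stood at 74.6, 67.9, 71.7 and 60.1 CPM, and Ifnar2 at 201, 187, 193 and 207 CPM. Irf1, a transcription factor of the interferon-gamma response, stood at 70.6, 101, 134 and 118 CPM, and Socs3, a feedback inhibitor of cytokine receptors, at 45.4, 81.5, 107 and 84.0 CPM. Both were lowest in Het_sham, as Isg15, Oasl1 and Ifih1 were, and as 18.9% of 13728 genes were. Ifnar1 was highest there, and how many genes of the list had either order is not given.

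A list of 39 other interferon-stimulated genes, of which 35 were matched by symbol, also had a higher median in KO_MI. Of 33 measured in macrophages, 8 were called higher in KO_MI than in Het_MI and 0 lower, with a median of 0.41, where the shares over all genes were 4.15% and 3.93%. The 8 were Ifi206 (1.29), Phf11a (1.27), Slfn1 (1.17), Ifi208 (1.14), Ifi213 (0.91), Ifitm3 (0.90), Ifi209 (0.82) and Gm4951 (0.81). Ifitm3, which blocks the entry of viruses, stood at 394, 329, 370 and 692 CPM. Between KO_sham and Het_sham, 1 of 32 was called higher (Slfn2) and 5 lower, with a median of -0.31 (3.5% and 5.29% of all genes). Between Het_MI and Het_sham, 2 of 33 were called higher and 4 lower (6.12% and 6.81% of all genes), and between KO_MI and KO_sham 12 of 33 were called higher and 0 lower (5.92% and 5.15%).

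Since KO_MI held no macrophage with a Y-linked UMI, the comparison was repeated in the macrophages that held an Xist UMI but none from the Y chromosome. These numbered 321, 686, 321 and 2489. Of 37 members, 10 were called higher in KO_MI than in Het_MI and 0 lower, where 8.17% of all genes were called higher and 8.69% lower, and the median fell to 0.28. The interval lay above 0 for 18 members and below 0 for 2. Zbp1 (1.57 [1.19 to 1.98]), Irf7 (1.20) and Ifi27l2a (0.80 [0.74 to 0.86]) had ratios close to those in all macrophages. Rsad2 (0.75 [0.39 to 1.12]) and Ifit2 (0.82) had smaller ratios. Ifit1 (0.22 [-0.12 to 0.58]), Ifit3 (0.33 [-0.10 to 0.80]), Rtp4 (0.21) and Usp18 (0.28) no longer reached 1.5-fold. Irf9 lay below 0 (-0.42 [-0.66 to -0.17]), as did Ifi207 (-0.17 [-0.25 to -0.09]). Between KO_sham and Het_sham, 4 of 32 members were called higher in these cells and 13 lower, with a median of -0.46, where 4.86% of all genes were called higher and 4.79% lower. So the sham comparison kept its direction, and the one after infarction did so with fewer members called.

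**Figure D3:**
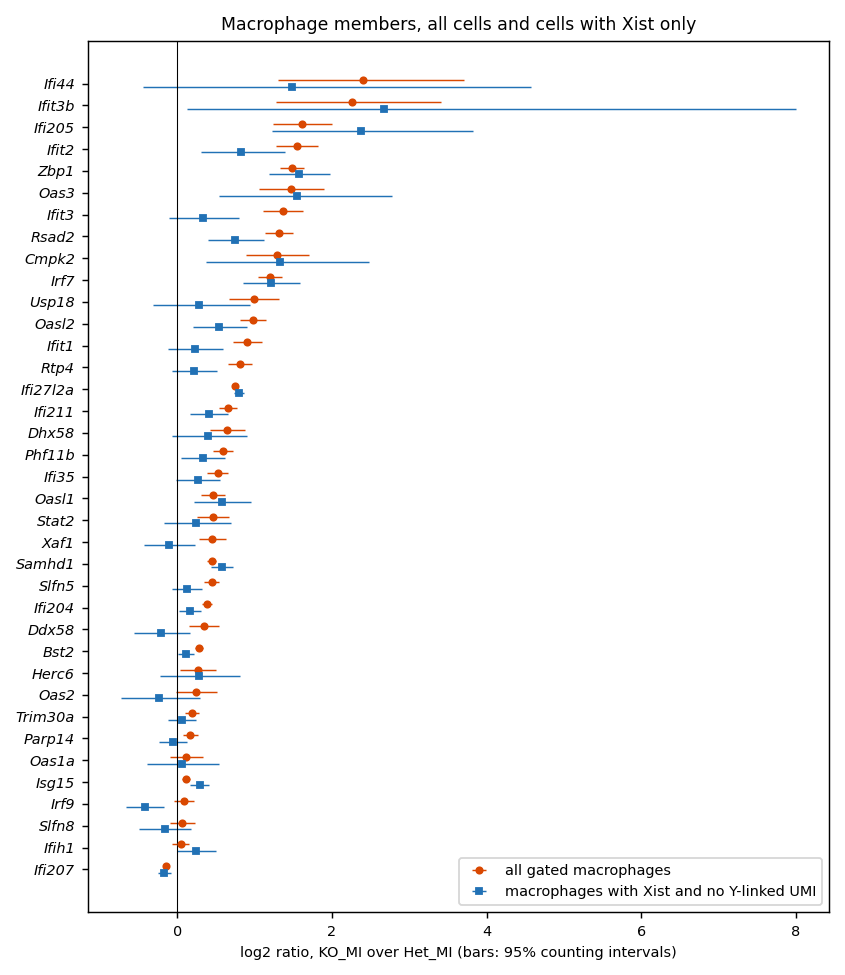
Log2 ratio of KO_MI over Het_MI for each member in all gated macrophages (circles) and in those with an Xist UMI but none from the Y chromosome (squares), with 95% counting intervals. The 2 symbols lie close together for Zbp1, Irf7 and Ifi27l2a and apart for Ifit1, Ifit3 and Usp18.

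Within 1 library the same split of cells can be read without the genotype. In Het_MI, 9 of 35 members were called higher in macrophages with Xist and without Y-linked RNA than in those with a Y-linked UMI and 1 lower, with a median of 0.26, where 3.87% of all genes were called higher and 6.23% lower. Ifit3 (1.31), Ifit2 (0.96), Usp18 (0.90), Ifit1 (0.77) and Rtp4 (0.69) were among the higher ones. Zbp1 (-0.12), Irf7 (-0.03) and Ifi27l2a (-0.04) were not. In KO_sham, 2 of 35 were called higher and 5 lower, with a median of -0.14, where 2.11% of all genes were called higher and 3.65% lower. In Het_sham, 3 of 33 were called higher and 0 lower, with a median of 0.07, where 1.59% of all genes were called higher and 4.95% lower. The cells of each sex come from an unknown number of mice, so sex and mouse cannot be told apart here.

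RNA of other lineages moved with the libraries too. Summed over 7 classical monocyte markers, the macrophages held 164, 213, 305 and 699 CPM, and each of the 7 was highest in KO_MI, among them Fn1 (25.5, 35.2, 126 and 347 CPM), Plac8 (80.8, 123, 108 and 234 CPM) and Ly6c2 (11.5, 8.18, 11.1 and 31.8 CPM). The defining monocyte gene Chil3 stood at 0.12, 0.70, 0.28 and 0.99 CPM. The neutrophil list summed to 295, 495, 503 and 568 CPM, the T cell list to 95.4, 11.7, 21.8 and 32.7 CPM, the B cell list to 219, 203, 204 and 180 CPM and the erythroid list to 23.7, 9.01, 30.3 and 99.3 CPM. The macrophage list summed to 19464, 17985, 17513 and 17206 CPM. Without the macrophages that held a UMI of Ly6c2, Chil3, Plac8 or Vcan, 17 of 37 members were called higher in KO_MI than in Het_MI, with a median of 0.49. That left 1171, 2058, 1736 and 2141 cells, or 83.0% to 89.2%, and the share of all genes called in them was not computed. Cells with RNA of other monocyte markers, such as Fn1 and Ccr2, were not left out. The macrophages also differed in depth, with a median of 10591 UMIs in Het_MI and 8632 in KO_MI. The part of the monocyte, neutrophil, T cell, B cell and erythroid RNA in the results was not tested.

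The members also differed in how far their RNA was gathered in the macrophages rich in other members. For each member, the macrophages were ranked by the fraction of each cell's UMIs that came from the other members. The share of the member's UMIs in the top 5% of cells was then taken. Over the 4 libraries that share was 42.3% to 50.5% for Ifit3, 36.5% to 51.1% for Ifit2, 27.4% to 45.0% for Rsad2 and 25.8% to 40.2% for Irf7. It was 4.72% to 5.85% for Irf9, 4.66% to 6.88% for Ifi207, 5.96% to 7.02% for Samhd1 and 5.50% to 7.59% for Ifi27l2a. The share that a gene unrelated to the ranking would give depends on the depth of the top cells and was not computed. Ifit1 ranged from 14.1% in Het_MI to 45.9% in Het_sham. So Ifit2, Ifit3 and, less so, Rsad2 and Irf7 were concentrated in the cells rich in the other members. Irf9, Ifi207, Samhd1 and Ifi27l2a were much less so, in each library. The share was over 25% for 11, 10, 10 and 9 members and under 10% for 10, 16, 14 and 5.

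Cells were then thinned to 2000 UMIs each, which kept 1277, 2368, 1921 and 2525 macrophages. They held a mean of 5.40, 4.97, 5.25 and 6.79 member UMIs and a median of 5, 4, 4 and 6. Macrophages with a UMI of 10 or more different members made up 1.64% [1.02 to 2.50], 0.929% [0.58 to 1.40], 1.15% [0.72 to 1.73] and 3.25% [2.59 to 4.02] (exact binomial intervals), or 21, 22, 22 and 82 cells. KO_MI thus had both the higher median and the larger tail. With the top 5% of cells left out in each library, the log2 ratio of KO_MI over Het_MI was 1.33 for Ifit3, 1.17 for Ifit2, 1.11 for Rsad2, 1.51 for Irf7, 1.56 for Zbp1 and 0.73 for Ifi27l2a, so these genes stayed past 1.5-fold in the remaining cells.

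**Figure D4:**
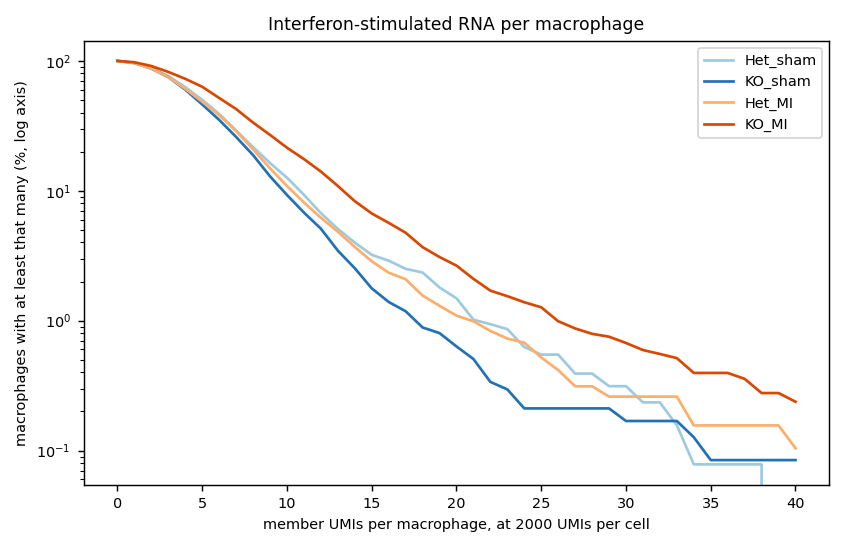
Share of macrophages (percent, log axis) with at least a given number of member UMIs (horizontal axis) after thinning each cell to 2000 UMIs, 1 line per library. The KO_MI line lies above the other 3 through most of the range.

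In all, 10 classes had at least 20 cells in every library, and the members were not tied to macrophages. By the median over the libraries, 9 members were highest in macrophages, 9 in endothelial cells, 8 in classical monocytes, 5 in type 1 conventional dendritic cells, 2 in NK cells, 2 in neutrophils, 1 in fibroblasts and 1 in non-classical monocytes. The sort for CD45 should remove endothelial cells and fibroblasts. Per library 34 to 68 and 44 to 59 of them remained, so their levels rest on few cells. Type 1 conventional dendritic cells (23, 42, 31 and 21) and NK cells (24, 46, 64 and 97) were few too. For most members the highest class overlapped the next over the libraries. The ranges were apart for Ifi205 (median 264 CPM in type 1 dendritic cells and 24.5 in classical monocytes), Phf11b (128 in type 1 dendritic cells and 33.8 in macrophages), Ifi35 (88.6 in type 1 dendritic cells and 57.7 in classical monocytes), Slfn5 (350 in endothelial cells and 111 in fibroblasts), Ifi44 (11.7 in endothelial cells and 1.87 in fibroblasts) and Ifi207 (400 in macrophages and 285 in classical monocytes). Ifi27l2a was highest in classical monocytes (a median of 1064 CPM) and lowest in endothelial cells (3.66 CPM), where it was nearly undetected although it was the most counted member in macrophages of the same libraries.

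**Figure D5:**
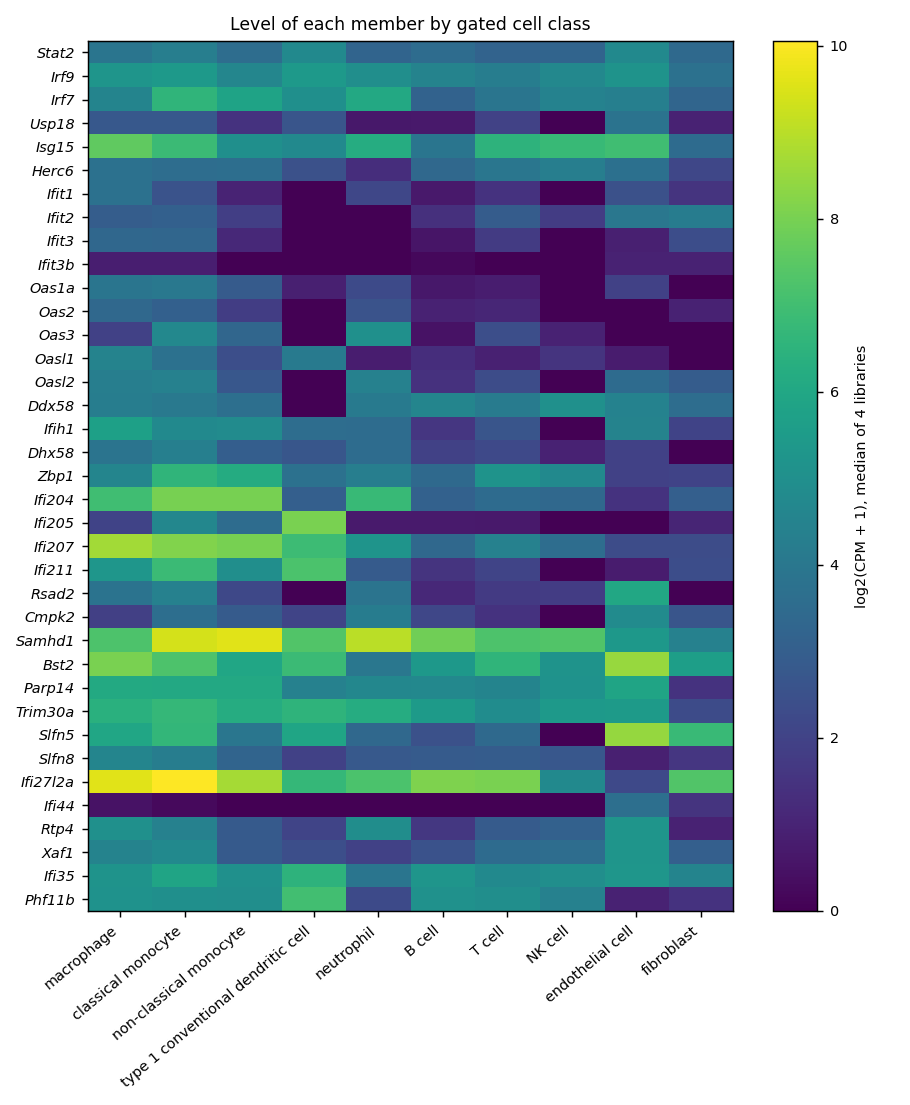
Level of each member in 10 gated cell classes, as the log2 of the median CPM of the 4 libraries plus 1. Ifi27l2a is brightest in classical monocytes and macrophages and darkest in endothelial cells, and Slfn5 is bright in endothelial cells.

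Classical monocytes (254, 225, 177 and 332 cells) had the highest summed level of the members, 3520, 3249, 3636 and 4809 CPM, again highest in KO_MI. Of 35 members measured between the MI libraries, 10 were called higher and 0 lower, with a median of 0.28, where 5.32% of all genes were called higher and 8% lower. Ifi27l2a stood at 987, 957, 1141 and 1839 CPM, a log2 ratio of 0.69 [0.61 to 0.77]. Samhd1 stood at 698, 661, 667 and 738 CPM and Ifi207 at 282, 310, 266 and 287 CPM, both within 1.5-fold. The highest ratio was that of Oasl2 (52, 26, 25 and 99 UMIs), 1.34 [0.70 to 2.04], and the lowest that of Parp14 (69.4, 49.8, 73.4 and 64.6 CPM), -0.19. The 10 calls became 5 at 100 UMIs, 6 with a stricter gate and 4 in thinned cells. After sham surgery, 0 of 30 members were called higher in KO_sham and 4 lower, where 3.78% of all genes were called higher and 6.49% lower. Between KO_MI and KO_sham 17 of 35 were called higher and 0 lower (5.02% and 6.27% of all genes), and between Het_MI and Het_sham 3 of 31 were higher and 2 lower (5.87% and 7.24%).

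Non-classical monocytes (617, 617, 168 and 317 cells) had 18 members measured between the MI libraries, of which 6 were called higher and 0 lower, with a median of 0.11, where 6.21% of all genes were called higher and 9.84% lower. Ifi27l2a stood at 393, 308, 428 and 1011 CPM, a log2 ratio of 1.24 [1.07 to 1.41]. Samhd1, the most counted member there, stood at 749, 698, 795 and 822 CPM and Ifi207 at 249, 252, 270 and 237 CPM. Ifi205 had the highest ratio (2.08 [0.74 to 3.78]) on 39 UMIs in KO_MI against 5, and Ifih1 the lowest (-0.55). The interval lay above 0 for 5 of the 18 members. Between KO_MI and KO_sham 11 of 24 were called higher and 0 lower (4.49% and 11.3% of all genes). Between Het_MI and Het_sham 0 of 21 were higher and 1 lower (5.89% and 10.9%), and between KO_sham and Het_sham 0 of 27 were higher and 5 lower (3.49% and 5.21%). In classical and non-classical monocytes alike, the members called higher were thus those of the comparisons that hold KO_MI, with the exception of 3 in classical monocytes between the Het libraries.

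Neutrophils (200, 242, 191 and 240 cells) had 13 members measured, of which 6 were called higher in KO_MI than in Het_MI and 0 lower, with a median of 0.22, where 12.9% of all genes were called higher and 14.1% lower. Ifi27l2a had the highest ratio of the class, at 160, 132, 109 and 448 CPM (2.04 [1.67 to 2.42]). Samhd1 stood at 531, 526, 505 and 457 CPM and Ifi204 at 109, 85.9, 111 and 129 CPM. The lowest ratio was that of Rtp4 (29.6, 18.5, 34.3 and 30.1 CPM), -0.19. The 6 calls became 1 at 100 UMIs, 1 in thinned cells and 3 with droplets of 2 lineages kept. Between KO_MI and KO_sham 7 of 16 were called higher and 0 lower (8.83% and 14.2% of all genes). Between Het_MI and Het_sham 1 of 9 was higher and 1 lower (4.91% and 15.3%), and between KO_sham and Het_sham 1 of 11 was higher and 1 lower (4.2% and 10.9%).

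In lymphocytes fewer members were called higher in the comparisons that hold KO_MI, and the difference between classes was not tested. B cells (951, 1088, 772 and 708 cells) had 20 members measured, of which 2 were called higher in KO_MI than in Het_MI and 1 lower, with a median of 0.21, where 2.72% of all genes were called higher and 8.75% lower. Ifi27l2a stood at 245, 227, 303 and 491 CPM there (0.70 [0.59 to 0.80]), and Ifi211 had the highest ratio (2.31 [1.04 to 3.77]) on 23 UMIs against 7. Slfn8 had the lowest (-0.69). The 2 higher calls became 0 to 11 over the settings tried. Samhd1 stood at 261, 237, 228 and 205 CPM and Trim30a at 51.5, 45.3, 42.0 and 40.6 CPM, both lowest in KO_MI. Between KO_MI and KO_sham 3 of 21 were called higher and 2 lower (3.22% and 8.07% of all genes). Between Het_MI and Het_sham 1 of 20 was higher and 1 lower (4.12% and 5.16%), and between KO_sham and Het_sham 1 of 21 was higher and 0 lower (2.2% and 4.78%). That member was Isg15, and its ratio was -0.16 without the top cell of each library.

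T cells (299, 182, 179 and 264 cells) had 18 members measured, of which 0 were called higher in KO_MI than in Het_MI and 6 lower, with a median of -0.29, where 6.94% of all genes were called higher and 14.2% lower. Herc6 had the lowest ratio, at 9.53, 20.7, 19.0 and 6.88 CPM (-1.47 [-2.47 to -0.52]). Irf7 had the highest (0.53), on 14 UMIs in Het_MI and 29 in KO_MI. Ifi27l2a stood at 204, 380, 277 and 249 CPM, with -0.15 [-0.34 to 0.03] between the MI libraries, so it did not exceed its counting error here. With droplets of 2 lineages kept, 14 members were called higher in KO_MI in place of 0. That setting raised the T cells to 271 in Het_MI and 539 in KO_MI, and the share of all genes called was not computed. Samhd1 stood at 104, 231, 178 and 127 CPM and Bst2 at 112, 82.1, 82.6 and 105 CPM. After sham surgery, 9 of 21 members were called higher in KO_sham than in Het_sham and 1 lower, where 13.6% of all genes were called higher and 23.7% lower. Between Het_MI and Het_sham 9 of 20 were higher and 2 lower (11% and 15.1% of all genes), a comparison that shares Het_sham. Between KO_MI and KO_sham 0 of 17 were higher and 7 lower (15.9% and 15.8%). The T cell gate spans several kinds of T cell, and their mix in each library was not tested. NK cells (24, 46, 64 and 97 cells) were too few to compare, and their most counted members were Samhd1 (182, 135, 188 and 85.6 CPM), Isg15 (34.1, 127, 95.5 and 123 CPM) and Trim30a.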

How the data were processed

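Single-cell RNA libraries of sorted CD45+ heart cells were analysed, 4 libraries with 1 per group. The deposited matrices are UMI counts by gene and barcode that the authors left unnormalized. The submitters' processing notes name Cell Ranger 6.1.1, Seurat 4, mm10 and GRCm38, and the matrices name Cell Ranger 4.0.0, per the file headers. For cell calling, the settings are not given in the sources.

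Cells with at least 500 UMIs, at least 200 genes and at most 10% mitochondrial UMIs were kept. Each was assigned to 1 of 17 classes by its summed UMIs of marker genes per 10000 UMIs (for macrophages at least 60, with at least 6 markers detected), thresholds set after seeing the data. Droplets with at least 3 UMIs of a second lineage, at 10% or more of that lineage's level, were removed (14.1% to 21.3% of kept cells). Scrublet's automatic threshold called 0 to 139 cells per library and was not used. UMIs were summed per class and library. CPM carry exact Poisson intervals, shares Clopper-Pearson intervals and log2 ratios exact conditional binomial intervals, at 95%. These cover counting error only, and totals of 52701847 to 72002420 UMIs per library set that precision. Classes with at least 100 cells in both libraries were compared, and genes with at least 30 UMIs over both. Every member was named in macrophages. In other classes the 3 members with the most UMIs and those with the highest and lowest ratio of KO_MI over Het_MI were named, and other genes only from the 2 pathway lists. Members, lists and markers were chosen with earlier results of these data known. Some genes of the pathway and marker lists are not reported here.

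Gene positions are from GENCODE for GRCm38 and promoters from RefSeq GRCm38.p6. The ratio and its interval were tested on simulated data. Alternatives were TMM (edgeR 4.0.16, R 4.3.3) and median-of-ratios factors, other count minimums, a stricter gate, other doublet rules, thinning to 2000 UMIs, leaving out top cells, a limit of 5% mitochondrial UMIs and cells with Xist only. Python 3.11.15, numpy 2.4.6, scipy 1.17.1 and scanpy 1.11.5 were used.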

Additional observations from a re-analysis of the deposited data

Results flagged for a closer look

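In 27 pairs of a member and a class, over 4 classes, the genotype ratio after MI (KO_MI over Het_MI) and after sham surgery (KO_sham over Het_sham) had intervals on opposite sides of 0. The 2 ratios share no library, each group is 1 library, and the difference between them was not tested. The value given is the log2 ratio after MI minus that after sham surgery.

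In macrophages 19 of 36 members stood out in this way, against 9.94% of all genes measured both ways. The difference was 2.18 for Ifit3, 2.11 for Zbp1, 1.91 for Irf7, 1.71 for Rtp4, 1.66 for Usp18, 1.51 for Oasl2, 1.23 for Xaf1, 1.18 for Dhx58 and 1.06 for Slfn5. It was 0.93 for Ifi35, 0.92 for Ifi27l2a, 0.92 for Phf11b, 0.72 for Stat2, 0.71 for Ddx58, 0.71 for Herc6, 0.62 for Bst2, 0.52 for Trim30a and 0.50 for Ifi204. Ifi207, at -0.51, was the 1 macrophage member with the reverse sign, lower in KO_MI and higher in KO_sham.

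In macrophages with Xist and without Y-linked RNA the ratio after MI was 0.33 [-0.10 to 0.80] for Ifit3, 0.21 for Rtp4 and 0.28 for Usp18. The ratio of Usp18 after sham surgery changed sign in macrophages thinned to an equal number of UMIs, so both of its ratios depend on the cells or UMIs used. In classical monocytes 3 of 30 members had opposite intervals (2.61% of all genes), namely Rtp4 (2.45), Oasl2 (2.15) and Zbp1 (1.32), and in non-classical monocytes 1 of 18, Ifi27l2a (1.59; 3.99% of all genes). In T cells 4 of 18 did so (13.9% of all genes). Bst2 (0.79) was higher in KO_MI and lower in KO_sham, while Herc6 (-2.59), Samhd1 (-1.63) and Trim30a (-1.32) were lower in KO_MI and higher in KO_sham. None of the 10 neutrophil members and none of the 19 B cell members compared both ways did so (4.36% and 3.14% of all genes).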

How the results depend on the processing

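No paired analysis was possible because each group has 1 library, and for the same reason no replicate could be left out. 3 alternatives, leaving out the top 5% of cells and leaving out macrophages with monocyte markers by either of 2 marker sets, were chosen after seeing the data. Beside the main setting, the share of all genes called is given only for the macrophages with Xist. In macrophages the count of members higher in KO_MI than in Het_MI was 14 to 19 and the median 0.41 to 0.61 under the alternatives other than the cells with Xist, where the count was 10 and the median 0.28. For members in macrophage, KO_sham over Het_sham, the 5 higher members became 3 with droplets of 2 lineages kept and 3 on thinning, and Usp18 (0.016) and Ifi205 (-0.084) changed sign on thinning. For Het_MI over Het_sham the median became 0.19 and Ifit3 0.29 in cells with Xist.

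Counts in smaller classes depended on the settings, and the cause was not tested. The 10 classical monocyte members became 5 at 100 UMIs, 6 with the stricter gate and 4 on thinning. There Phf11b reversed to -0.49 on thinning and Rtp4 to -0.45 in cells with Xist. The 6 non-classical monocyte members became 14 at 1 UMI in each library. The 6 neutrophil members became 17 at 1 UMI, 1 at 100 UMIs, 3 with droplets of 2 lineages kept and 1 on thinning, and the cells with Xist were too few to run. The 2 B cell members became 4 with TMM, 4 with median-of-ratios factors, 11 at 1 UMI, 1 at 100 UMIs, 1 without the highest Scrublet scores, 4 with droplets of 2 lineages kept, 4 without the top cell, 1 on thinning, 5 in cells with Xist, 5 at 5% mitochondrial UMIs and 0 without the top 5% of cells. Isg15 in B cells, KO_sham over Het_sham, reversed to -0.045 with the stricter gate, -0.16 without the top cell, -0.082 on thinning, -1.18 in cells with Xist and -0.091 without the top 5% of cells. The 0 T cell members became 1 with TMM, median-of-ratios factors, without the top cell, in cells with Xist and at 5% mitochondrial UMIs, 3 at 1 UMI and 14 with droplets of 2 lineages kept. In T cells Slfn5 (KO_MI over Het_MI) reversed to 0.067 with those droplets and 0.16 on thinning, and Zbp1 (KO_sham over Het_sham) to -0.80 on thinning.

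The centre of all genes lay more than 0.1 from 0 in non-classical monocytes (-0.13) and B cells (-0.10) for KO_MI over Het_MI by TMM. Genes with few UMIs, such as Ifit3b and Ifi44, have wide counting intervals at this depth.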
